A study of Zea mays with 15 samples.

Results

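The 5 genes described here are core components of the maize circadian clock: CCA1 (GRMZM2G014902), LHY (GRMZM2G474769), a pair of TOC1 genes (GRMZM2G020081 and GRMZM2G148453) and PRR73 (GRMZM2G095727). They were chosen by identifier as 5 of the 39145 genes in the deposited table, and the reads of all their transcripts were summed. The identifiers of 4 of the 5 had a RefSeq record, and GRMZM2G148453 had none. The plant circadian clock is a set of transcription factors that repress each other in turn over the day. As worked out in Arabidopsis, the MYB-type factors CCA1 and LHY peak around dawn and repress TOC1, a pseudo-response regulator that peaks around dusk and represses CCA1 and LHY in return. Other pseudo-response regulators, the family to which PRR73 belongs, fill the hours between, and the clock times photosynthesis, growth and stress responses in leaves.

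Leaves of the inbred line B73 were sampled outdoors from plants under plastic filters. In the UV-B group the filter let pass an average of 1.5 W/m2 of UV-B at noon, and in the control group 0.35 W/m2, both with 8 W/m2 of UV-A. All plants therefore received some UV-B. RNA came from leaf 4, 3 days after emergence, from zone 1 (0 to 1 cm from the leaf base), zone 2 (1 to 2 cm) and zone 3 (2 to 3 cm). There were 6 usable UV-B libraries, 1 from zone 1, 3 from zone 2 and 2 from zone 3, and 8 control libraries, of which zones 1 and 3 gave 3 each and zone 2 gave 2. Each library title ends in a number, and a set is used here for the libraries of 1 treatment with the same number. The UV-B sets are UV-B 7 (zone 2), UV-B 8 (zones 2 and 3) and UV-B 9 (zones 1, 2 and 3), and the control sets are control 3 (zones 1 and 3), control 4 and control 7 (zones 1, 2 and 3 each). The sets coincide with biological replicates 1, 2 and 3 of each treatment. The labels do not say what the title number marks, and the time of day at which leaves were taken is not given in the sources used here.

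Total counts per usable library ran from 1673416 to 19221143 reads in UV-B and from 2007679 to 17923081 in control, with the deepest libraries in zone 1 and the shallowest in zone 3. UV-B zone 3 replicate 1 held 728 reads, none of them from the 5 genes, and was left out. Levels are CPM, the reads of a gene for every 1000000 reads of all genes in its library. The tissue labels could be compared with markers of the leaf gradient. Of 24 tested genes of cell division and of the growth-regulating factor family, 22 were lower in control zone 3 than in control zone 1, and 7 of 7 photosynthesis genes were higher, by edgeR's quasi-likelihood test (adjusted p under 0.05, which 51.3% of all 23899 tested genes passed). RNA of whole segments cannot tell fewer expressing cells from less RNA per cell.

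The morning genes and the evening genes sat at opposite levels in every set. CCA1 and LHY were high in UV-B 7, UV-B 8, control 4 and control 7 and low in UV-B 9 and control 3, and both TOC1 genes were the other way round. PRR73 was abundant in every library. The differences between sets of 1 treatment reached about 6 units on the log2 scale for CCA1 and for the chromosome 5 TOC1 gene. Between the UV-B and control groups, none of the 5 genes passed the test over all zones or in a single zone.

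**Figure D1:**
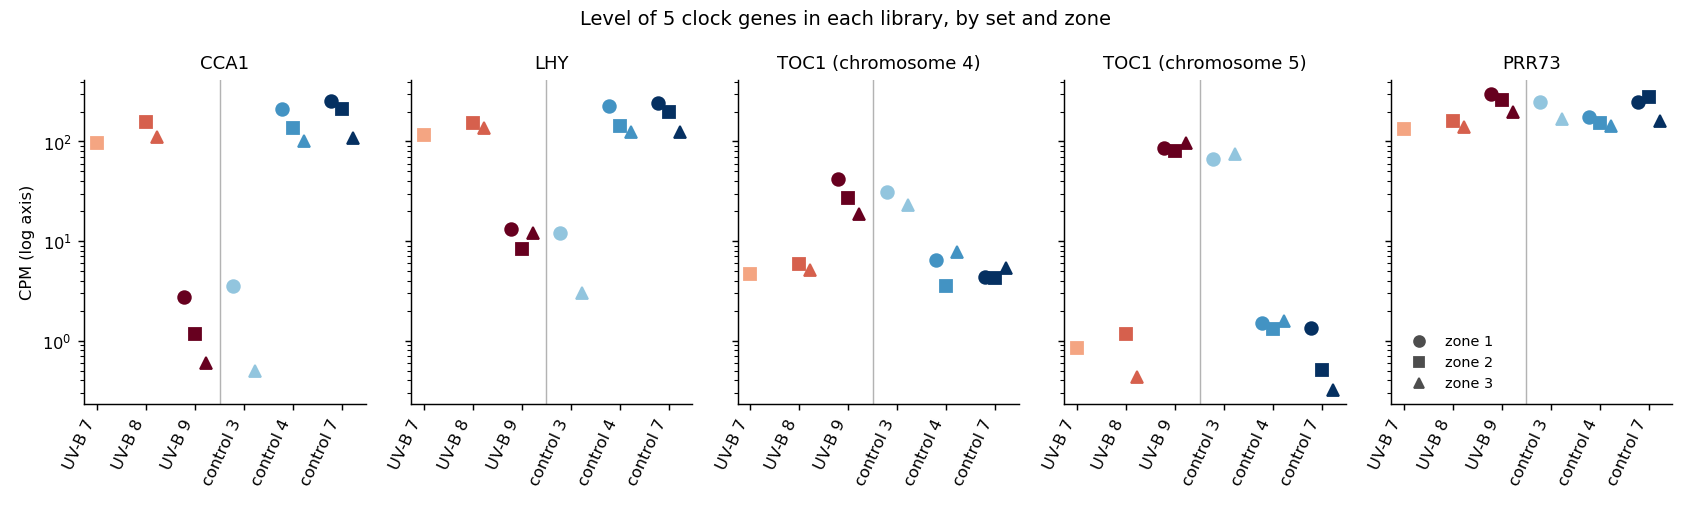
Level of each clock gene in the 14 usable libraries, in CPM on a log axis. Each point is 1 library, its colour and place on the horizontal axis give the set, UV-B sets left of control sets, and its shape gives the zone. CCA1 lies below 4 CPM in UV-B 9 and control 3 and above 97 CPM in the other 4 sets, the TOC1 genes run the opposite way, and PRR73 stays between 133 and 296 CPM.

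CCA1 lies on chromosome 4 from 32527797 to 32560791 in the deposited table, whose genome build is not given in the sources used here. It has 1 annotated transcript of 2901 bases in 11 exons, and all of its reads were unique to it. In the UV-B libraries CCA1 had 97.5 CPM in UV-B 7 (zone 2), 156 and 111 CPM in UV-B 8 (zones 2 and 3), and 2.76, 1.16 and 0.598 CPM in UV-B 9 (zones 1, 2 and 3). In the control libraries it had 3.50 CPM in zone 1 and 0.498 CPM in zone 3 of control 3, 211, 137 and 101 CPM in control 4, and 254, 211 and 107 CPM in control 7. The 5 libraries of UV-B 9 and control 3 therefore lay below the other 9 with no overlap, whatever their zone. This split was read from the levels themselves. The share of all genes that lie apart in the same way is not given here, so the split is description only. The zone 3 values of UV-B 9 and control 3 rest on 1 read each, for which exact 95% Poisson intervals run from 0.0151 to 3.33 CPM and from 0.0126 to 2.78 CPM. Those intervals cover counting error only.

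LHY, the close relative and partner of CCA1, lies on chromosome 10 from 78333990 to 78337257 and has 2 annotated transcripts. In the UV-B libraries it had 115 CPM in UV-B 7, 155 and 138 CPM in UV-B 8, and 13.1, 8.40 and 12.0 CPM in UV-B 9. In the control libraries it had 12.0 and 2.99 CPM in control 3, 225, 141 and 125 CPM in control 4, and 242, 199.9 and 124 CPM in control 7. UV-B 9 and control 3 were again the lowest sets, with a narrower span than for CCA1. Per length, in deposited RPKM summed over the transcripts of a gene, LHY exceeded CCA1 in all 14 libraries. The ratio of LHY to CCA1 was 1.44 in UV-B 7, 1.23 to 1.54 in UV-B 8, 1.29 to 1.52 in control 4 and 1.18 to 1.44 in control 7, and it was 5.86 to 24.4 in UV-B 9 and 4.33 to 7.30 in control 3. Where both genes were low, CCA1 was the lower by more. The highest ratios in UV-B 9 and control 3 are those of zone 3, where CCA1 has a single read.

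The chromosome 4 TOC1 gene (GRMZM2G020081, 140726568 to 140729617, 3 transcripts) had fewer reads for its library size than the chromosome 5 gene in UV-B 9 and control 3, and more in the other 4 sets. In the UV-B libraries it had 4.65 CPM in UV-B 7, 5.83 and 5.14 CPM in UV-B 8, and 42.2, 26.9 and 18.5 CPM in UV-B 9. In the control libraries it had 30.9 and 22.9 CPM in control 3, 6.47, 3.50 and 7.79 CPM in control 4, and 4.39, 4.21 and 5.30 CPM in control 7. Here UV-B 9 and control 3 lay above all other libraries, which is description only, as for CCA1.

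The chromosome 5 TOC1 gene (GRMZM2G148453, 185463237 to 185465012, 1 transcript, all reads unique) fell into separate ranges as CCA1 did, the other way round. In the UV-B libraries it had 0.845 CPM in UV-B 7, 1.15 and 0.429 CPM in UV-B 8, and 85.6, 79.3 and 97.4 CPM in UV-B 9. In the control libraries it had 66.3 and 74.7 CPM in control 3, 1.51, 1.31 and 1.56 CPM in control 4, and 1.34, 0.510 and 0.321 CPM in control 7. No library lay between 1.56 and 66.3 CPM, which is again description only. The zone 3 values of UV-B 8 and control 7 rest on 2 reads each. Per length, the order of the 2 TOC1 genes turned over between sets. The chromosome 5 gene was 3.19 to 6.26 times the chromosome 4 gene in UV-B 9 and 3.32 to 3.56 times in control 3, and it was 0.201 times in UV-B 7, 0.0949 to 0.234 times in UV-B 8, 0.256 to 0.442 times in control 4 and 0.0733 to 0.455 times in control 7.

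PRR73, a pseudo-response regulator gene on chromosome 9 (138861928 to 138870925, 6 transcripts), varied least. In the UV-B libraries it had 133 CPM in UV-B 7, 161 and 139 CPM in UV-B 8, and 296, 260.4 and 196 CPM in UV-B 9. In the control libraries it had 251 and 167 CPM in control 3, 175, 152 and 142 CPM in control 4, and 251, 282 and 162 CPM in control 7. The highest of the 14 values was 2.22 times the lowest, and the sets overlapped. Per length it was the highest of the 5 genes in every library except control 4 zone 1, where LHY was higher. It had 80.9 RPKM in UV-B 7, 77.9 to 82.5 in UV-B 8 and 104 to 128 in UV-B 9. In the control sets it had 88.3 to 101 RPKM in control 3, 78.3 to 79.7 in control 4 and 80.3 to 110 in control 7. The chromosome 5 TOC1 gene followed in UV-B 9 (50.3 to 58.6 RPKM) and control 3 (42.4 to 45.4 RPKM). In those 2 sets CCA1 was lowest, at 0.184 to 0.909 RPKM in UV-B 9 and 0.155 to 1.12 RPKM in control 3. In control 4 and control 7, LHY reached 90.6 and 94.8 RPKM in zone 1, beside 79.7 and 96.1 RPKM of PRR73.

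The question whether the sets of 1 treatment differed was tested with an additive model of zone and set. The zones of a set are its only repeats, so these p-values compare the sets with each other and not the conditions. Within UV-B, 18.5% of the 23899 tested genes differed between sets (edgeR, adjusted p under 0.05), and 4 of the 5 clock genes did. The edgeR adjusted p was 1.00e-08 for CCA1, 1.13e-07 for LHY, 8.80e-04 for the chromosome 4 TOC1 gene, 3.50e-08 for the chromosome 5 TOC1 gene and 0.0592 for PRR73. Within control, 9.26% of genes differed and again the same 4 of the 5, with edgeR adjusted p of 2.25e-08 for CCA1, 4.19e-07 for LHY, 3.88e-04 for the chromosome 4 TOC1 gene, 1.12e-08 for the chromosome 5 TOC1 gene and 0.0641 for PRR73. The PRR73 value passed 0.05 under DESeq2 (adjusted p = 0.0133 within UV-B and 0.0104 within control) and the chromosome 4 TOC1 value within control did not pass with unique reads alone (edgeR adjusted p = 0.0686).

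Set by set, CCA1 was lower by 6.23 ± 0.28 log2 units (SE) in UV-B 9 than in UV-B 7 and by 6.86 ± 0.25 in UV-B 9 than in UV-B 8, and LHY fell by 3.92 ± 0.26 and by 4.30 ± 0.23 log2 units in the same comparisons. The chromosome 4 TOC1 gene was higher in UV-B 9, by 2.18 ± 0.45 over UV-B 7 and 2.08 ± 0.33 over UV-B 8, and the chromosome 5 TOC1 gene by 6.25 ± 0.48 and 6.24 ± 0.34. The 4 genes passed the edgeR test in both comparisons, which share UV-B 9 and which 16.2% of all genes passed for UV-B 9 against 7 and 12.5% for UV-B 9 against 8. PRR73 missed it, at 0.69 ± 0.23 (adjusted p = 0.0521 by edgeR) over UV-B 7 and 0.43 ± 0.17 (0.118) over UV-B 8. Over 20 alternatives the first of these ran from 0.0148 to 0.140, and it passed under DESeq2 size factors, DESeq2, limma-voom, unique reads, no filter on low counts, a filter of 1 CPM in 3 libraries, and without control zone 3 replicate 2 or UV-B zone 3 replicate 3. UV-B 8 and UV-B 7 differed in 0 of the 5 genes (edgeR calls in all genes 1.33%), where CCA1 had the smallest unadjusted p, 0.0241, at 0.63 ± 0.25 log2 units.

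Among control sets the contrast was of the same size. CCA1 was 6.07 ± 0.29 log2 units higher in control 4 than in control 3 and 6.40 ± 0.29 higher in control 7 than in control 3, and LHY was 4.39 ± 0.27 and 4.59 ± 0.27 higher. The chromosome 4 TOC1 gene fell by 2.08 ± 0.32 in control 4 and by 2.44 ± 0.32 in control 7 relative to control 3, and the chromosome 5 gene fell by 5.52 ± 0.29 and by 6.25 ± 0.30. Both comparisons share control 3. Again these 4 of 5 genes passed the edgeR test in both, against 3.88% of all genes for control 4 and 3.74% for control 7. The call of the chromosome 4 TOC1 gene in control 4 against 3 ended without control zone 1 replicate 1 (log2 change -1.98). With unique reads alone that gene missed the test in both comparisons (edgeR adjusted p = 0.163 for control 4 and 0.140 for control 7). PRR73 gave -0.41 ± 0.17 (edgeR adjusted p = 0.238) for control 4 and 0.13 ± 0.17 (0.763) for control 7.

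Control 7 and control 4 differed in 1 of the 5 genes (8.13% of all genes passed). PRR73 was 0.54 ± 0.15 log2 units higher in control 7 (edgeR adjusted p = 0.0402, and 0.00740 to 0.512 over 21 alternatives). That call was lost without any 1 of 7 libraries, namely zones 1 and 2 of control replicates 2 and 3, zones 2 and 3 of UV-B replicate 2 and zone 2 of UV-B replicate 3, with log2 changes from 0.38 to 0.57. CCA1 and LHY gave 0.33 ± 0.16 and 0.20 ± 0.17 in the same comparison, and the chromosome 4 and 5 TOC1 genes gave -0.35 ± 0.31 and -0.74 ± 0.42.

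The balance of morning and evening genes put each library on 1 scale. The mean log2(CPM + 0.5) of CCA1 and LHY minus that of the 2 TOC1 genes was 5.34 in UV-B 7, 5.59 to 5.76 in UV-B 8 and -3.60 to -3.19 in UV-B 9, and it was -4.49 to -2.69 in control 3, 4.77 to 5.87 in control 4 and 5.73 to 6.56 in control 7. No library had a value between -2.69 and 4.77, so a set was wholly on one side or the other in all zones sampled. Title number 7 occurs in both treatments, and both sets that carry it lay on the positive side. Over the 14 libraries, with the mean of each zone removed, Pearson's r was 0.985 between CCA1 and LHY, 0.952 between the 2 TOC1 genes, -0.992 between CCA1 and the chromosome 5 TOC1 gene and -0.530 between CCA1 and PRR73. These r describe 14 libraries that fall into separate clusters, that share sets and differ in depth.

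**Figure D2:**
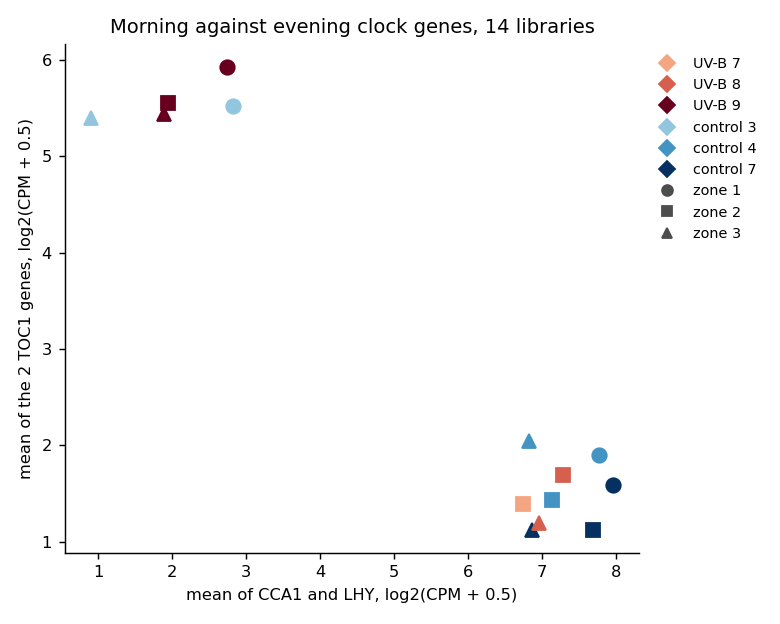
Mean log2(CPM + 0.5) of the 2 TOC1 genes against that of CCA1 and LHY. Each point is 1 of the 14 libraries, coloured by set and shaped by zone. The libraries of UV-B 9 and control 3 lie at the upper left and those of the other 4 sets at the lower right, with none between.

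The study's main question was how UV-B changes the leaf growth zone. Against that background of sets, the 6 UV-B libraries and the 8 control libraries overlapped for all 5 genes over the pooled zones, and the groups of zone 3 overlapped for all 5 as well. In zone 2 the chromosome 4 TOC1 gene did not overlap, at 4.65 to 26.9 CPM in UV-B and 3.50 to 4.21 CPM in control, and the other 4 genes did. The single UV-B library of zone 1 lay below the control range for CCA1 and above it for both TOC1 genes and PRR73. The share of all genes that lie apart in the same way in zones 1 and 2 is not given here. These ranges are therefore description only. In zone 2 CCA1 averaged 84.9 ± 78.2 CPM in UV-B and 174 ± 52.1 CPM in control (SD, n = 3 and 2). In zone 3 it averaged 56.0 ± 78.4 CPM in UV-B and 69.7 ± 60.0 CPM in control (n = 2 and 3). UV-B zone 1 is the 1 library of UV-B 9, with 2.76 CPM, beside 156 ± 134 CPM in control (n = 3), and control zone 2 holds no library of control 3, so the sets are not evenly spread over the groups. Over all zones the log2 difference of UV-B minus control was -1.19 ± 1.23 for CCA1 (edgeR adjusted p = 0.781), -0.97 ± 0.93 for LHY (0.761), 1.00 ± 0.58 for the chromosome 4 TOC1 gene (0.607), 2.16 ± 1.46 for the chromosome 5 TOC1 gene (0.647) and -0.02 ± 0.17 for PRR73 (0.979). None of the 5 passed, and of all 23899 genes 7 did (0.0293%).

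In single zones none of the 5 passed either. The edgeR calls over all genes were 1, 0 and 1 in zones 1, 2 and 3 (0.00418%, 0% and 0.00418%), with 447, 939 and 864 genes at an unadjusted p under 0.05. The CCA1 difference was -5.92 ± 3.25 log2 units for zone 1, -0.98 ± 1.72 for zone 2 and -0.25 ± 1.78 for zone 3. For the chromosome 5 TOC1 gene it was 1.80 ± 2.44, 4.84 ± 3.16 and 0.88 ± 2.26, and for PRR73 it was 0.29 ± 0.36, -0.27 ± 0.29 and 0.03 ± 0.29. For the chromosome 4 TOC1 gene in zone 2 it was 1.59 ± 0.99. Over the 3 zones these standard errors were 0.99 to 3.25 log2 units for the 4 genes that differ between sets and 0.29 to 0.36 for PRR73. The UV-B difference in zone 3 minus that in zone 2 was 0.72 ± 2.47 for CCA1 and 0.29 ± 0.41 for PRR73, and edgeR called 0 genes for it (0%, with 454 at an unadjusted p under 0.05, 0 of the 5 among the calls).

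With the set as the unit, 3 UV-B sets were compared with 3 control sets by a two-sided exact permutation test, which cannot go below p = 0.1. The UV-B sets minus the control sets differed, after removing zone, by -0.87 for CCA1 (p = 0.5), -0.29 for LHY (p = 0.8), 0.37 for the chromosome 4 TOC1 gene (p = 0.5), 0.61 for the chromosome 5 TOC1 gene (p = 0.6) and -0.11 for PRR73 (p = 0.8), all exact and in log2(CPM + 0.5). The SD over sets was 3.23 in UV-B and 3.38 in control for CCA1, against 0.44 in UV-B and 0.27 in control for PRR73. On the scale of CCA1 and LHY minus the TOC1 genes, each treatment had 1 set on the negative side and 2 on the positive side.

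**Figure D3:**
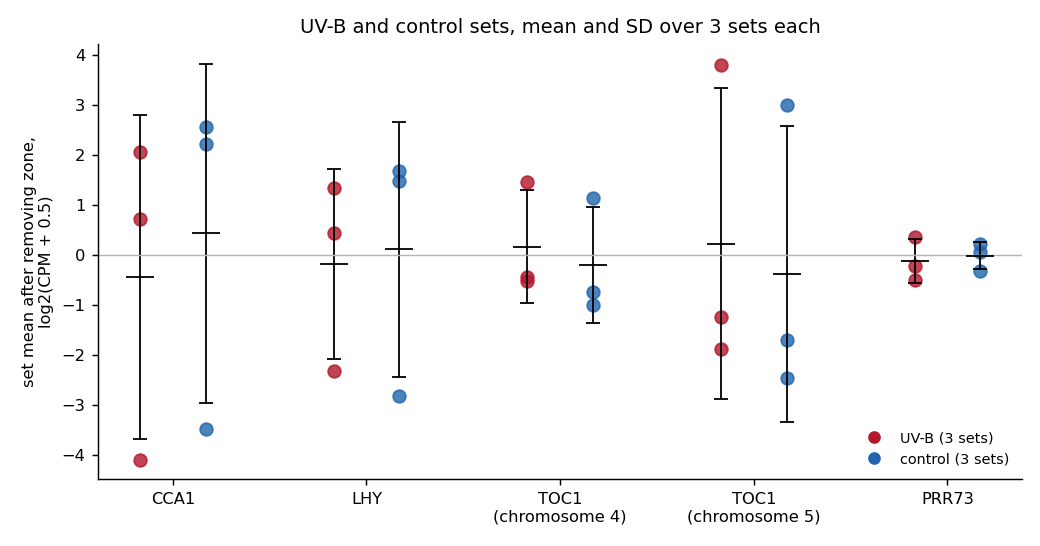
Set means of each gene after removing zone, in log2(CPM + 0.5), for the 3 UV-B sets (left, red) and the 3 control sets (right, blue). Points are sets, the horizontal bar is their mean and the vertical bar its SD. For CCA1 the SD of 3.23 in UV-B and 3.38 in control exceeds the difference of -0.87 between the means.

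Title number 7 offers the 1 comparison of treatments within a number, chosen after the data were seen, with only zone 2 on the UV-B side. UV-B 7 minus control 7 was -0.75 ± 0.24 log2 units for CCA1 (edgeR adjusted p = 0.0397) and -0.71 ± 0.22 for PRR73 (0.0355), so 2 of the 5 genes fell, where 21.8% of all genes were called. LHY gave -0.43 ± 0.26 (adjusted p = 0.249), and the chromosome 4 and 5 TOC1 genes gave 0.39 ± 0.45 and 0.25 ± 0.68. Since UV-B 7 is 1 library, its spread is taken from the other sets. UV-B 7 is biological replicate 1 of UV-B, and control 7 is replicate 3 of control. In zone 2 the photosynthesis genes summed to 947 CPM in UV-B 7, 515 in UV-B 8 and 262 in UV-B 9. In zone 2 of control 4 and 7 they summed to 451 and 337 CPM. The division and growth-factor genes summed to 1260 CPM in UV-B 7 and 1050 CPM in zone 2 of control 7. Whether position along the leaf had a part in these differences was not tested. Over 20 alternatives the adjusted p ran from 0.0151 to 0.306 for CCA1 and from 0.00947 to 0.248 for PRR73. The CCA1 call ended without any 1 of 6 libraries (control zones 1 and 2 of replicates 2 and 3, UV-B zones 2 and 3 of replicate 2, log2 changes from -0.79 to -0.48), and the PRR73 call without control zones 1 or 2 of replicate 3 or UV-B zone 2 of replicate 3 (-0.73 to -0.48).

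Along the leaf, the levels of CCA1, LHY and PRR73 were lower in zone 3 than in zone 1 in each of the 4 sets that hold both. The level of CCA1 in zone 3 over that in zone 1 was 0.217 in UV-B 9, 0.142 in control 3, 0.480 in control 4 and 0.422 in control 7, where the first 2 rest on 1 read in zone 3. For LHY the same ratio was 0.912 in UV-B 9, 0.249 in control 3, 0.554 in control 4 and 0.514 in control 7. The LHY ratios in UV-B 9 and control 3 rest on 20 and 6 reads in zone 3. For PRR73 the ratio was 0.661 in UV-B 9, 0.666 in control 3, 0.810 in control 4 and 0.644 in control 7. The share of all genes that are lower in zone 3 in all 4 sets is not given here. In UV-B 8, which has no zone 1, zone 3 over zone 2 was 0.714 for CCA1, 0.889 for LHY and 0.867 for PRR73. The chromosome 5 TOC1 gene had ratios of zone 3 over zone 1 of 1.14 in UV-B 9, 1.13 in control 3 and 1.03 in control 4, and 0.239 in control 7, the last on 2 reads in zone 3. The chromosome 4 gene gave 0.439 in UV-B 9, 0.742 in control 3, and 1.20 and 1.21 in control 4 and 7.

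**Figure D4:**
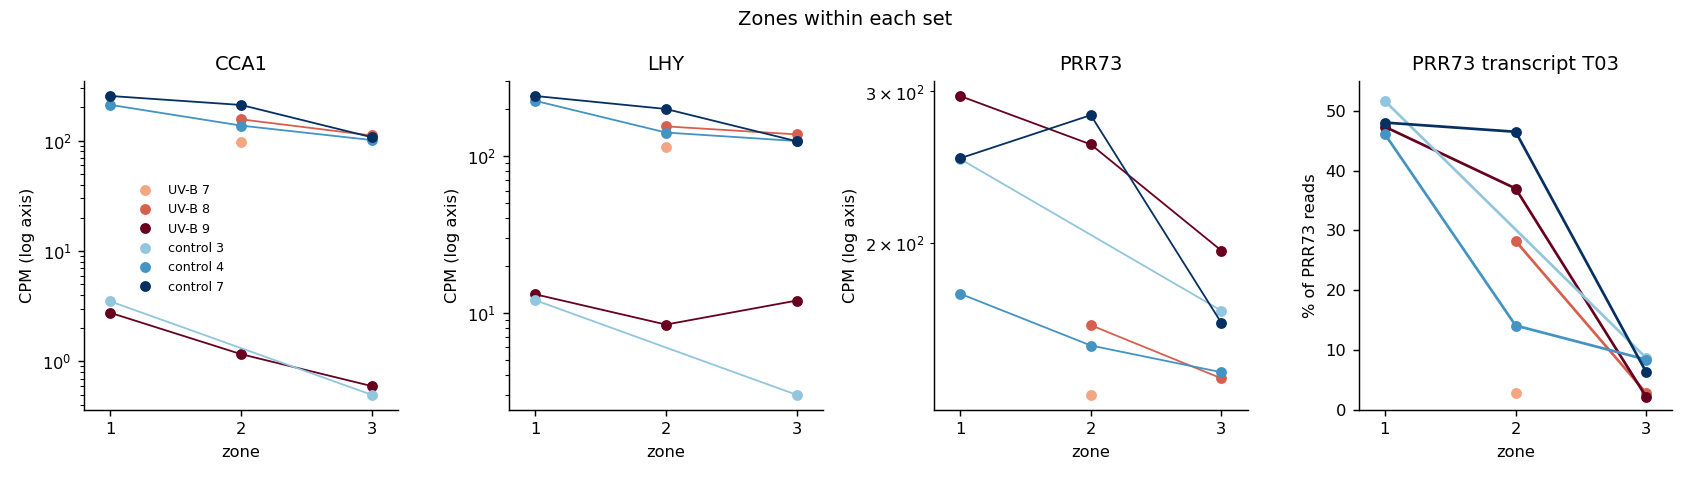
Levels of CCA1, LHY and PRR73 (CPM, log axis) and the share of PRR73 reads assigned to its transcript T03 (%), by zone. Lines join the libraries of 1 set, and UV-B 7 is a single point in zone 2. In each of the 4 sets with both zones, CCA1, LHY and PRR73 are lower in zone 3 than in zone 1, and the T03 share is between 46.1% and 51.7% in zone 1 and between 2.13% and 8.66% in zone 3.

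In the model of groups alone, which has no term for sets and so takes their spread into the error, these zone differences did not pass. Control zone 3 minus control zone 1 was -1.03 ± 1.58 log2 units for CCA1 (edgeR adjusted p = 0.609), -0.80 ± 1.24 for LHY (0.616) and -0.44 ± 0.26 for PRR73 (0.170), and 0 of the 5 genes passed where 51.3% of all genes did. In control zone 2 against zone 1 and control zone 3 against zone 2, 0 of the 5 passed (8.33% and 13.3% of all genes), and likewise in UV-B zone 3 against zone 2 (6.85%). The number of genes called between UV-B zones 3 and 2 fell to 0 when those groups were fitted alone. With a term for sets in the model, CCA1, LHY and PRR73 passed in control zone 3 against zone 1, as did 62.6% of all genes. Those values are given under the dependence on processing, because the sets are not a proven pairing.

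PRR73 changed along the leaf in which of its annotated transcripts the reads were assigned to. The model T03 (2904 bases, 10 exons, 138861928 to 138869236) ends before the region of T06 (1341 bases, 1 exon, 138869584 to 138870925) begins. The share of PRR73 reads assigned to T03 in UV-B zones 1, 2 and 3 was 47.4%, 22.7 ± 17.8% and 2.45 ± 0.45% (SD, n = 1, 3 and 2). In control zones 1, 2 and 3 it was 48.6 ± 2.8%, 30.3 ± 22.9% and 7.77 ± 1.31% (SD, n = 3, 2 and 3). In zone 2 the libraries were spread over almost the whole range, with 2.77%, 28.2% and 37.0% in UV-B 7, 8 and 9 and 14.1% and 46.5% in control 4 and 7.

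In a fit of 42227 single transcripts, T03 was lower in control zone 3 than in control zone 1 by 3.28 ± 0.85 log2 units (edgeR adjusted p = 0.0107), while T06 was higher by 0.68 ± 0.22 (0.0272). Of all transcripts 37.9% passed in that comparison. The T03 share in zone 3 did not overlap that in zone 1, with an exact permutation p of 0.1, the smallest that 3 against 3 libraries allow. Of the 10416 reads assigned to T03, 98 were unique to it, and of the 9996 of T06, 2033 were. Most reads of both were thus shared with some other transcript and rest on the authors' assignment. The regions of T03 and T06 do not overlap, so the shift also lies between separate parts of the gene. Whether it reflects transcripts or how reads spread along the gene was not tested. Between UV-B and control, T03 passed the test in none of the 3 zones (log2 differences 0.29 ± 1.06 in zone 1, -0.68 ± 0.85 in zone 2 and -1.69 ± 1.05 in zone 3, where 0.00237%, 0% and 0% of transcripts passed). T03 was 4.28 ± 0.91 log2 units higher in UV-B 9 than in UV-B 7 (edgeR adjusted p = 0.0306, 3.08% of transcripts called). It did not pass in UV-B 9 against 8 (0.89 ± 0.59, edgeR adjusted p = 0.569), in UV-B 8 against 7 (3.39 ± 0.89, 0.142) or in the joint test of the UV-B sets (0.0573). UV-B 7 is a single library.

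The reads of the chromosome 4 TOC1 gene were also split differently among its transcripts by zone. The longest model, T01 (2332 bases, starting at 140726568), took 33.2 ± 12.0% of the gene's reads in control zone 3 and 82.2 ± 9.96% in control zone 1 (SD, n = 3 each, exact permutation p = 0.1, the smallest possible). In UV-B it took 93.8%, 49.5 ± 33.5% and 35.5 ± 9.0% in zones 1, 2 and 3. T01 itself did not pass between these zones, at -2.02 ± 1.05 log2 units in control zone 3 minus zone 1 (edgeR adjusted p = 0.143), nor did T03 (0.157). The shorter T02, which starts at 140727893, was 2.38 ± 0.72 log2 units higher in control zone 3 than in zone 1 (edgeR adjusted p = 0.0209), on 189 reads in all libraries of which 1 was unique. Between UV-B sets, T01 was 4.02 ± 0.91 log2 units higher in UV-B 9 than in UV-B 7 (edgeR adjusted p = 0.0381), and T02 and T03 gave 0.15 ± 0.90 and -0.06 ± 0.90.

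A further 3 clock genes had a name in the annotation: GI and gigz1b, a pair of GIGANTEA genes whose product acts in the evening part of the clock, and the pseudo-response regulator PRR59. All 3 of 3 passed the joint test of sets within UV-B and within control (18.5% and 9.26% of all genes) and followed the TOC1 genes. GI averaged 46.8, 53.1 and 485 CPM in UV-B 7, 8 and 9 and 421, 68.0 and 112 CPM in control 3, 4 and 7. For gigz1b the means were 3.17, 2.26 and 150.4 CPM in UV-B 7, 8 and 9 and 129, 4.71 and 8.79 CPM in control 3, 4 and 7. PRR59 had 4.86, 5.46 and 54.6 CPM in the UV-B sets and 46.9, 7.38 and 12.5 CPM in the control sets in the same order. In control 7 against 4, 2 of these 3 were higher (8.13% of all genes passed), and in UV-B 7 against control 7, 2 of 3 were lower (21.8%). None of the 3 passed for UV-B over all zones (median log2 difference 0.90, beside -0.01 over all genes).

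Of 13 genes set down as clock outputs (CONSTANS-like genes and genes of light-harvesting proteins), 8 passed the joint test within UV-B (18.5% of all genes) and 6 within control (9.26%). Within UV-B those that passed were all the light-harvesting genes and COL8. Of the CONSTANS-like genes only COL8 passed, within UV-B and within control, so the counts rest mainly on the light-harvesting genes. In UV-B 9, 8 were lower and 0 higher than in UV-B 7 (16.2% of all genes passed), and in control 4, 6 were higher and 0 lower than in control 3 (3.88%). The light-harvesting gene lhcb5 averaged 358, 443 and 81.7 CPM in UV-B 7, 8 and 9 and 101, 322 and 349 CPM in control 3, 4 and 7. Cab-m7, of the same family, averaged 848, 1493 and 282 CPM in the UV-B sets and 305, 887 and 1036 CPM in the control sets. The CONSTANS homologue conz1 passed neither joint test, with set means from 34.5 to 53.6 CPM. Of the 13, 8 were also higher in control zone 3 than in control zone 1 (51.3% of all genes passed there), and the sets do not hold the same zones, so their set means are not fully comparable.

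Further lists of genes were counted in the same joint tests, which 18.5% of all genes passed within UV-B and 9.26% within control. Of 15 heat shock genes, 9 passed within UV-B and 8 within control. They summed to 2754 CPM in UV-B 7, 3032 to 3217 in UV-B 8 and 1311 to 2492 in UV-B 9, and to 1306 to 2844 in control 3, 2932 to 4695 in control 4 and 2484 to 4817 in control 7. The sums cover different zones, and their largest part came from hsp70-4 (set means from 1418 to 1938 CPM), which passed neither joint test. The small heat shock gene hsp22 was named for its small p in these tests. It averaged 98.1, 89.6 and 1.71 CPM in UV-B 7, 8 and 9. In control 3, 4 and 7 it averaged 3.77, 84.2 and 58.6 CPM. Of the 24 division and growth-factor genes, 7 passed within UV-B and 1, GRF6, within control. Of the 7 photosynthesis genes, 6 passed within UV-B and 4 within control. The photosynthesis genes summed to 947 CPM in UV-B 7, 515 to 2398 in UV-B 8 and 54.0 to 1849 in UV-B 9, and to 35.6 to 1471 in control 3, 155 to 1932 in control 4 and 88.7 to 2529 in control 7. The part of these groups in the differences between sets was not tested.

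Genes of most similar pattern were sought among 16389 genes with a mean of at least 5 CPM, by Pearson's r over the 14 libraries with zone removed. With the mean of CCA1 and LHY, 62 genes had r above 0.95 and 62 below -0.95, and with the mean of the 2 TOC1 genes the counts were 53 and 53. Among the 1738 of these genes that carry a name, the most alike to CCA1 and LHY were MYBE1 (GRMZM2G145041, r = 0.991), the protein disulfide isomerase gene pdi8 (0.983), the chaperone gene hsp101 (0.979), CRH (0.977) and the chaperone gene HSP90-2 (0.977). MYBE1 averaged 11.4, 13.7 and 0.397 CPM in UV-B 7, 8 and 9 and 0.179, 20.8 and 21.3 CPM in control 3, 4 and 7. The most opposite were thi1-2 (-0.990) and thi1 (-0.987), both genes of thiamine thiazole synthesis, the cysteine protease genes ccp1 (-0.976) and mir2 (-0.971), and plr354a (-0.968).

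The gene thi1-2 averaged 13.6, 13.1 and 1368 CPM in UV-B 7, 8 and 9 and 1488, 13.9 and 19.1 CPM in control 3, 4 and 7. For thi1 the means were 5.38, 3.62 and 539 CPM in the UV-B sets and 451, 1.64 and 3.28 CPM in the control sets. In UV-B 9 and control 3 both had more CPM than the chromosome 5 TOC1 gene. The same thi1-2, thi1, ccp1 and plr354a, with Pds (r = 0.978), headed the genes most alike to the TOC1 pair, and pdi8 (-0.984), gtr1 (-0.978), MYBE1, hsp101 and CRH were its most opposite. Pds averaged 0.106, 0.468 and 95.2 CPM in UV-B 7, 8 and 9 and 49.6, 0.519 and 1.000 CPM in control 3, 4 and 7. The 14 points share 6 sets, so r here describes mainly how set means line up.

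**Figure D5:**
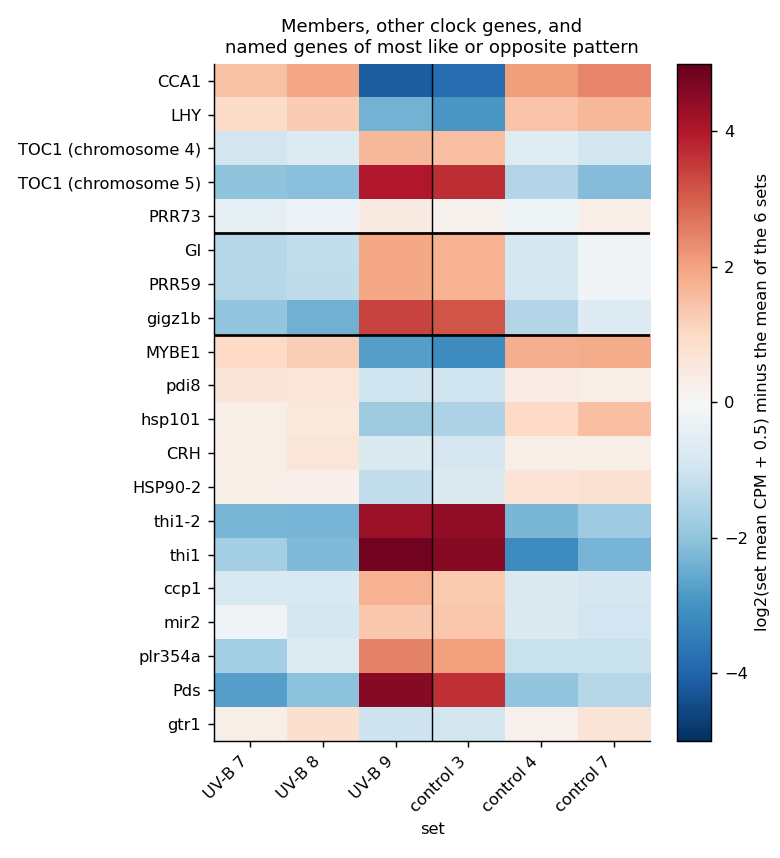
Heat map of set means, as log2(set mean CPM + 0.5) minus the mean of the 6 sets, UV-B sets left of control sets. Rows are the 5 clock genes (top), the 3 other clock genes (middle) and the named genes most like or most opposite in pattern (bottom), and colour runs from blue (below the gene's mean) to red (above it). UV-B 9 and control 3 stand together against the other 4 sets for CCA1, LHY, both TOC1 genes and the 3 other clock genes. PRR73 is nearly flat. The bottom rows were picked by their r with CCA1 and LHY or with the TOC1 genes, so their split follows from that choice.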

How the data were processed

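Per the file headers, the deposited table lists for each transcript the total read counts, the counts of reads unique to that transcript, and RPKM. Neither the aligner nor the genome build is given in the sources used here. Libraries were made with a stranded mRNA kit, per the labels' protocols. A further 21 columns of values belong to 3 libraries that match no label and were not used. Total counts of 62892 transcripts were summed to 39145 genes by identifier. Unique reads were 45.3% to 47.9% of a library's counts. The share of a gene's reads unique to 1 transcript was 100% for CCA1 and the chromosome 5 TOC1 gene, 3.99% for LHY, 14.7% for the chromosome 4 TOC1 gene and 7.71% for PRR73, whose transcripts share reads. RPKM deposited by the authors were used only for levels per length.

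The 14 libraries with more than 1000000 reads entered the fits, UV-B zone 3 replicate 1 being left out. Tests used edgeR 4.0.16 under R 4.3.3 (filterByExpr over the 6 groups, which kept 23899 genes and all 5 described here, TMM scaling, two-sided quasi-likelihood F test, Benjamini-Hochberg adjustment over all genes, threshold 0.05). The joint UV-B difference was fitted beside zone as an additive term, sets likewise, and single zones and zone comparisons were contrasts between 6 groups. SE were derived from the F statistic. In the fits without sets, p-values measure the spread between these libraries, which the labels call biological replicates of an experiment done repeatedly. Those fits treat the libraries of 1 set as independent. In the additive fit of zone and set, p-values measure the spread left between the zones of a set. Set means and the morning minus evening difference used log2(CPM + 0.5), with CPM over the reads of all genes and no TMM scaling. The fits were tried on simulated counts, drawn independently for each library. Only control 4 was given a set difference there, in genes chosen for it. How the UV-B and zone fits behave under the set differences seen here was therefore not tested. Alternatives used DESeq2 1.42.0 and limma 3.58.1.

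The 5 genes and the lists were chosen with earlier results of these data known, and the lists were filled by RefSeq symbol and synonym. Up to 3 genes of a list were to be named, those with the smallest p of the joint set tests and a mean of at least 5 CPM, plus the 5 named genes at each end of r. The rule for r asked for RefSeq symbols that do not start with LOC, which left 115 genes. The first informative synonym was therefore used as well, a choice made after the table was seen, as were the transcript fit and the comparison of UV-B 7 with control 7.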

Additional observations from a re-analysis of the deposited data

How the results depend on the processing

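The set differences of CCA1, LHY and the chromosome 5 TOC1 gene kept an adjusted p under 0.05 in both joint tests under every alternative run. Depth limits CCA1 in zone 3 of UV-B 9 and control 3 (1 read each) and the chromosome 5 TOC1 gene in zone 3 of UV-B 8 and control 7 (2 reads each). Transcript fits were not repeated without single libraries, and the zone 1 UV-B library has no replicate. In all values below the cause of a change was not tested, unless fewer samples or genes are named.

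Joint tests of sets. PRR73 passed within UV-B under DESeq2 size factors (adjusted p = 0.0453), DESeq2 (0.0133), limma-voom (0.0300) and unique reads (0.0335), and within control under DESeq2 size factors (0.0495), DESeq2 (0.0104) and limma-voom (0.0291). Leaving out single libraries gave 0.0451 to 0.202 within UV-B and 0.0398 to 0.283 within control. The chromosome 4 TOC1 gene missed within control with unique reads (0.0686). Counts of genes called within control were 3395 with no filter on low counts, 3999 by limma-voom, 667 at an adjusted p under 0.01 and 835 to 3331 without single libraries. Within UV-B they were 1652 at the stricter threshold and 1295 to 5043 without single libraries.

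Pairs of sets. At an adjusted p under 0.01 the genes called were 475 for control 4 against 3, 397 for control 7 against 3, 197 for control 7 against 4, 12 for UV-B 8 against 7, 1450 for UV-B 9 against 7, 1164 for UV-B 9 against 8 and 2035 for UV-B 7 against control 7. Unique reads gave 497 for control 4 against 3, 437 for control 7 against 3, 1047 for UV-B 8 against 7 and 1490 for UV-B 9 against 8. limma-voom gave 1645 for control 4 against 3 and 3992 for control 7 against 4. UV-B 8 against 7 had 942 with no filter, 576 by DESeq2 and 686 with UV-B zone 3 replicate 1. Without single libraries the counts were 347 to 1182, 364 to 1099 and 112 to 3022 for the control pairs in the order above, 6 to 665, 1402 to 4138 and 857 to 3231 for the UV-B pairs, and 1279 to 6313 for UV-B 7 against control 7. Signs turned for LHY in control 7 against 4 with unique reads (-0.15 log2 units), for the chromosome 4 TOC1 gene in UV-B 7 against control 7 with unique reads (-4.83), and for the chromosome 5 TOC1 gene in UV-B 8 against 7 with UV-B zone 3 replicate 1 (-0.032), DESeq2 (-0.014), limma-voom (-0.14) and unique reads (-0.026). Without single libraries the chromosome 5 TOC1 gene ran from -1.35 to 0.32 and the chromosome 4 gene from -0.18 to 0.20 in UV-B 8 against 7, and the chromosome 5 gene from -0.0094 to 1.16 in UV-B 7 against control 7.

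UV-B. None of the 5 genes passed for UV-B over all zones, in a single zone or in the interaction under any alternative. Over all zones 14 genes were called with UV-B zone 3 replicate 1, 14 with no filter, 66 by DESeq2, 4 by limma-voom, 4 with unique reads, 45 with the biological replicate number as a replicate block, 1 by limma-voom with sets as correlated replicate block (correlation 0.472) and 4 to 13 without single libraries. PRR73 turned to 0.038 log2 units with unique reads and ran from -0.12 to 0.15 without single libraries. In zone 1, 8 genes were called by DESeq2, 5 by limma-voom, 0 with the replicate block, 0 at the stricter threshold and 0 to 1 without single libraries. In zone 2 the counts were 2 by DESeq2, 1 by limma-voom and 1 with the groups alone. In zone 3 they were 4 by DESeq2, and 0 by limma-voom, with unique reads, with the groups alone and at the stricter threshold, and 0 to 1 without single libraries.

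Zones. Libraries of 1 set deviated together from their group means in 8 of 9 pairs (r over 0.1, lowest 0.0406, median 0.314). Libraries of other sets of the same treatment did so in 4 of 18 pairs (median -0.194). Not every pair within a set passed, and the labels do not say what the number marks, so the sets are not a proven pairing. With sets as a replicate block, 3 of the 5 genes passed in control zone 3 against zone 1, where 62.6% of all genes did: CCA1 (-1.09 ± 0.18, edgeR adjusted p = 1.50e-04), LHY (-0.92 ± 0.19, 9.15e-04) and PRR73 (-0.41 ± 0.16, 0.0323). CCA1 passed in control zone 3 against zone 2 (adjusted p = 0.0130). The block turned the chromosome 4 TOC1 gene to 0.095 and the chromosome 5 gene to -0.00471, which was also -0.95 by limma-voom and -0.046 with unique reads. Without single libraries they ran from -0.98 to 1.14 and from -4.55 to 4.07. Counts of genes called in control zone 2 against zone 1 were 3020 by DESeq2, 822 with unique reads, 4711 with the replicate block, 810 at the stricter threshold and 879 to 2279 without single libraries. For control zone 3 against zone 2 they were 1525 with unique reads, 7031 with the block, 708 at the stricter threshold and 558 to 3817 without single libraries. For UV-B zone 3 against zone 2 they were 2880 by DESeq2, 960 by limma-voom, 447 with unique reads, 5449 with the block, 0 with the groups alone, 147 at the stricter threshold and 0 to 2416 without single libraries.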
